A study of Mus musculus with 8 samples.

Results

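The genes described here are 44 genes of mitosis, the division of a cell's copied chromosomes between daughter cells. They were chosen by name from a table of 31228 mouse genes, and all 44 were found there once each. By role, 8 act at entry into mitosis, 2 organise chromosomes, 4 belong to the spindle checkpoint, 3 act at anaphase onset and 3 form the chromosomal passenger complex. Another 8 are centromere or kinetochore proteins, 8 are kinesin motors, 4 assemble the spindle and 4 act in cytokinesis.

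RNA of C57BL/6 mice was sequenced from 4 groups. These were extrahepatic bile duct epithelium (1 library), pancreatic duct epithelium (1 library), bile duct organoids (3 libraries) and pancreatic duct organoids (3 libraries). Per the labels' protocols, ducts were dissected under a microscope and digested with collagenase IV, and the epithelia went into Trizol without culture. Organoids, hollow 3-dimensional epithelial cultures, grew in Matrigel in D/F12-based medium with Glutamax, penicillin-streptomycin, B27 supplement (minus VA), N-acetylcysteine, nicotinamide, EGF, R-Spondin-1, Noggin, FGF10, Wnt3A-conditioned medium and the kinase inhibitor Y27632. Wnt3A and Y27632 were withdrawn once lumens had formed, and cultures were taken at passages 3 to 4. Age, sex and the number of animals per library are not given, and nothing says that the cultures of an organ came from separate animals, so p-values measure the spread between these cultures, which may be technical. Below, epithelium and organoids of the bile duct are called biliary and those of the pancreatic duct pancreatic.

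The deposited unit is FPKM, a read number divided by exon length and by library size. Libraries held between 12876470 and 20828217 reads or read pairs, as implied by the deposited values. In the epithelia the member with fewest reads, of the 39 with read numbers, was Ska1, with 16 reads in the biliary and 11 in the pancreatic library, and none of these 39 had under 129 reads in an organoid. Epithelial markers were present in all libraries (Epcam, Krt8, Krt18, Krt19, Krt7, Cdh1 and Sox9 together had 2163 FPKM in the epithelium of the bile duct, 461 FPKM in that of the pancreatic duct and 4574 to 10988 FPKM in organoids). The epithelial libraries also held RNA of other cells. All 6 fibroblast, 4 endothelial, 4 smooth muscle, 8 immune and 5 acinar markers were higher in both epithelia than in every organoid. In such bulk RNA, fewer cells of a type and less RNA per cell cannot be told apart.

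As background, cyclin B and cyclin A bind the kinase Cdk1 and drive the cell into mitosis, and Polo-like and Aurora kinases build the spindle. The spindle checkpoint holds the anaphase promoting complex in check until every kinetochore is attached. Cdc20 then activates that complex, which destroys securin and cyclin B, so that chromosomes separate and the cell cleaves. Most of these genes are transcribed late in the cell cycle, and a resting adult duct divides rarely. Their promoters are known for a pair of elements, the CCAAT box, bound by the factor NF-Y, and the cell cycle genes homology region, bound by the MuvB complex with Foxm1 or B-Myb or with the repressive DREAM proteins.

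Promoter windows from RefSeq (build GRCm38.p6), running from 250 bases before to 50 bases after a start site, matched 37 of the 44 genes. The others were Tpx2, Ska1, Kif20a, Aurkb, Ccna2, Dlgap5 and Foxm1. The RefSeq start lay within 100 bases of the gene start in the deposited table for 30 of the 37 and further away for 7, among them Pttg1, where it lay 270 bases inside the gene. The homology region was searched as TTTGAA and the box as CCAAT, on both strands, and neither motif holds the other. TTTGAA lay between 100 bases before and 50 bases after the start in 27 of the 37 members (73.0%), against 2494 of 27025 genes with a window (9.23%) and 582 of 10130 windowed genes tested from epithelium to organoid (5.75%). At least 2 CCAAT boxes lay in the window of 19 members (51.4%), against 13.3% of all genes, 16.2% of windowed genes tested, 37.7% of other mitosis genes and 36.7% of DNA replication genes. TTTGAA anywhere in the window together with CCAAT was found in 23 members (62.2%), against 7.97% of all genes. Among 53 other mitosis genes with a window, 23 (43.4%) had TTTGAA near the start, while 4 of 30 DNA replication genes (13.3%) and 1 of 14 genes of the anaphase promoting complex (7.14%) did. These matches are descriptions of letters and not of bound sites.

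The 120 bases before the RefSeq start are shown for 7 of the members that the results turn on. CCAAT or its reverse ATTGG and TTTGAA or its reverse TTCAAA are in capitals. All 7 shown hold a motif in this stretch. Stretches of Pttg1, Birc5 and Ccnb1 are not shown. Pttg1 and Birc5 were among the members with neither motif anywhere in the window, and Ccnb1 had CCAAT but no TTTGAA. They are the members with the widest rise on the scale used below (Cdc20 and Ccnb2), the kinase Cdk1, the common proliferation markers Top2a and Mki67, and 2 of the 5 genes with the widest ratio between the epithelia (Plk1 and Ube2c).
Ccnb2: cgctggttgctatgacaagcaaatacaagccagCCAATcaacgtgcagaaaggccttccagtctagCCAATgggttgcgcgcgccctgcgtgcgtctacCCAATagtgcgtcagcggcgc
Cdk1: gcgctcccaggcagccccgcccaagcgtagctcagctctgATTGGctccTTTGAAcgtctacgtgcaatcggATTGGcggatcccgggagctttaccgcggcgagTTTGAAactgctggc
Cdc20: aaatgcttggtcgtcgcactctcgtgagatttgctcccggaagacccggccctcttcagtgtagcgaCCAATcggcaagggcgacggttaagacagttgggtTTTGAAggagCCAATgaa
Top2a: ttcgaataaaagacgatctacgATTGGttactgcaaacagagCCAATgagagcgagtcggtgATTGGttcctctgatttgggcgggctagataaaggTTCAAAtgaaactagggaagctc
Mki67: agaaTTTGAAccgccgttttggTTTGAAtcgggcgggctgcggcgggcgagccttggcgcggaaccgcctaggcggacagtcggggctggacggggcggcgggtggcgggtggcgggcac
Ube2c: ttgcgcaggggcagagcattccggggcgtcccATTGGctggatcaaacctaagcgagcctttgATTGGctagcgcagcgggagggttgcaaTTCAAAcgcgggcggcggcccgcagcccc
Plk1: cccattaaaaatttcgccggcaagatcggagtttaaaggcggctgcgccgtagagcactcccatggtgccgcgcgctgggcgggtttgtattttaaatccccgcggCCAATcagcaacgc
On GRCm38 these lie at chr9:70421555-70421674, chr10:69352913-69353032, chr4:118437344-118437463, chr11:99024190-99024309 and chr7:135716380-135716499 on the minus strand, and chr2:164769809-164769928 and chr7:122159315-122159434 on the plus strand. In Cdc20, TTTGAA sat at bases -18 to -13 between CCAAT boxes at -53 and -8. In Cdk1 it occurred at -71 and at -15, and in Ube2c it lay on the opposite strand at -29 to -24. Plk1 had CCAAT at -14, and its TTTGAA fell after the start, at 30 to 35.

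Every mitosis gene was higher in every organoid than in either epithelium. In deposited FPKM, all 44 had their lowest organoid above both epithelia, which held for 39.9% of the 14919 genes tested. The 44 genes together amounted to 129 FPKM in biliary epithelium and 54.7 FPKM in pancreatic epithelium, and to 530.4 to 1217 FPKM in the organoids. In 40 of the 44 the lowest organoid was at least 2-fold above the higher epithelium, against 11.6% of the genes tested.

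**Figure D1:**
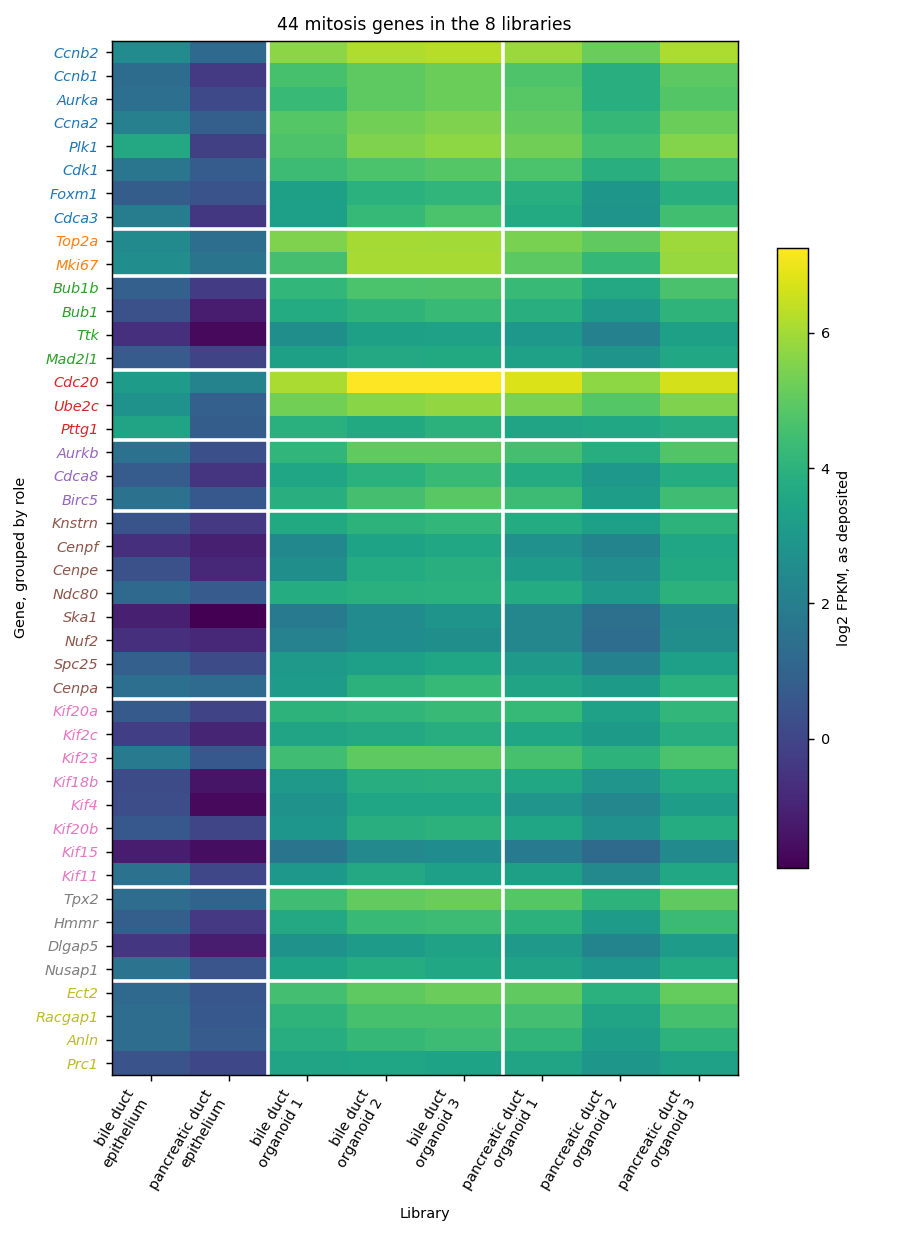
Deposited FPKM on a log2 colour scale for the 44 genes (rows, grouped and coloured by role) in the 8 libraries (columns). Both epithelia are darker than the 6 organoids in every row, Plk1 and Pttg1 are bright in biliary epithelium, and pancreatic organoid 2 is the darkest organoid in all rows but Pttg1.

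A single fit took the change from epithelium to organoid over both ducts (limma on log2(FPKM + 1), Benjamini-Hochberg adjusted over 14919 genes, with organ as a term). It takes the 2 epithelia, 1 per organ, as varying like organoids, and counts a change that differs between organs as error. All 44 genes passed an adjusted p of 0.05 in the direction of organoids, where 32.3% of all genes tested did so and 27.0% passed in the other direction. Their median log2 difference was 2.64, against 0.11 for all genes, and ran from 1.21 (Pttg1) to 3.60 (Cdc20). Scaling between libraries lowered organoids against epithelia by 0.15 log2 units for the biliary and 0.14 for the pancreatic side relative to deposited values. With deposited values all 44 also passed. Markers of other cells moved the other way, with acinar genes summing to 14156 and 28478 FPKM in biliary and pancreatic epithelium and at most 8.17 FPKM in an organoid, and fibroblast genes to 1206 and 1372 FPKM and at most 2.71 FPKM. Their part in the rise was not tested.

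Among the genes of mitotic entry, all 8 rose, by 2.32 to 3.53 on the log2 scale. Ccnb2 (chromosome 9, 70407692 to 70421547), a B-type cyclin, had 5.73 FPKM in biliary and 2.37 FPKM in pancreatic epithelium. Its organoid values were 50.5, 72.4 and 77.6 FPKM in biliary cultures 1, 2 and 3, and 58.9, 36.1 and 69.2 FPKM in pancreatic cultures 1, 2 and 3. The groups of epithelia and organoids lay far apart, and the rise was 3.53 (SE 0.27, limma adjusted p = 4.02e-05). Ccnb1, the cyclin B that most cells need for division, had 2.52 and 0.782 FPKM in the epithelia, then 24.2, 32.0 and 36.5 FPKM in biliary and 26.9, 14.6 and 30.9 FPKM in pancreatic organoids. All 6 cultures were far above the epithelia, with a rise of 3.36 (SE 0.28, limma adjusted p = 6.65e-05). Cdk1, their kinase partner, had 3.20 and 1.68 FPKM in the epithelia. In organoids it had 20.9, 25.3 and 28.7 FPKM for bile duct and 25.6, 14.2 and 24.0 FPKM for pancreatic duct, a rise of 2.70. The ratio of Ccnb2 to Ccnb1 was nearly the same in all organoids (2.09 to 2.47) and was 2.27 in biliary and 3.02 in pancreatic epithelium. Foxm1, a transcription factor of late cell cycle genes, was one of the members with a smaller rise, with 1.73 and 1.34 FPKM in the epithelia, then 9.87, 15.3 and 17.6 FPKM in biliary and 14.4, 7.65 and 14.6 FPKM in pancreatic organoids. The groups did not overlap, and the difference was 2.35 (SE 0.26, limma adjusted p = 0.000273).

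Top2a (chromosome 11, 98992943 to 99024189), the topoisomerase that untangles sister chromatids, had 5.63 and 2.65 FPKM in biliary and pancreatic epithelium. Biliary organoids had 44.6, 64.3 and 63.4 FPKM and pancreatic organoids 43.0, 32.6 and 60.7 FPKM, and the rise was 3.25 (SE 0.23, limma adjusted p = 2.8e-05). Mki67 (chromosome 7, 135689784 to 135716361), which encodes the Ki-67 antigen that coats mitotic chromosomes, had 6.00 and 3.04 FPKM in the epithelia. Its organoid values spread more widely, with 23.6, 66.8 and 65.9 FPKM for bile duct and 31.2, 18.5 and 56.8 FPKM for pancreatic duct. The rise was 2.78 (SE 0.48, limma adjusted p = 0.00205), the second largest SE of the 44, after that of Plk1. Mki67 and Top2a stood near 1 to 1 in the epithelia (ratios of 1.07 and 1.15), while the ratio was 0.530, 1.04 and 1.04 in biliary and 0.726, 0.566 and 0.937 in pancreatic cultures 1, 2 and 3.

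All 4 spindle checkpoint genes rose. Bub1b, which encodes the BubR1 subunit that restrains Cdc20, had 1.87 and 0.817 FPKM in the epithelia, then 17.9, 25.2 and 26.0 FPKM in biliary and 19.3, 12.3 and 25.0 FPKM in pancreatic organoids, a rise of 3.13. The checkpoint kinase gene Bub1 rose by 2.99, Ttk, which encodes the kinase Mps1, by 2.50, and Mad2l1, which encodes the Cdc20 inhibitor Mad2, by 2.22.

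On the log2(FPKM + 1) scale the widest and the narrowest rise of all 44 were both among the genes of anaphase onset. With a pseudocount of 0.1 in place of 1, Ccnb1 was widest (3.99, against 3.77 for Cdc20), and Pttg1 was again narrowest (1.44). Cdc20 (chromosome 4, 118432901 to 118437352), the activator of the anaphase promoting complex, had 9.02 FPKM in biliary and 4.57 FPKM in pancreatic epithelium. It was the most abundant member in each of the 6 organoids, with 68.2, 153 and 152 FPKM for bile duct and 108, 52.1 and 101 FPKM for pancreatic duct (rise 3.60, SE 0.37, limma adjusted p = 0.000171). Pttg1 (chromosome 11, 43420250 to 43426251) encodes securin, the inhibitor of separase that the complex destroys. It had 10.9 FPKM in biliary epithelium against 14.9, 12.5 and 15.8 FPKM in biliary organoids, and 1.71 FPKM in pancreatic epithelium against 11.0, 12.0 and 14.1 FPKM in pancreatic organoids. All organoids lay above both epithelia, but the lowest organoid exceeded biliary epithelium by a factor of 1.01. Its rise of 1.21 had an SE of 0.39 and a limma adjusted p of 0.0328. Without pancreatic epithelium the value was 0.24. The call was lost without any 1 of the pancreatic organoids (1.11 to 1.18) and with median of ratios scaling (1.06). It was also lost without the organ term (1.21) and with limma-voom on recovered reads (1.10). Ube2c, the ubiquitin-conjugating enzyme of the complex, rose by 3.08 (SE 0.29), from 6.87 and 1.87 FPKM to 28.5 to 55.2 FPKM.

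The chromosomal passenger complex corrects faulty attachments and later guides cleavage. Its kinase gene Aurkb had 2.87 and 1.25 FPKM in the epithelia, 17.3, 32.1 and 32.3 FPKM in biliary organoids and 23.4, 14.1 and 27.0 FPKM in pancreatic organoids, a rise of 2.93. Birc5, which encodes survivin, and Cdca8, which encodes borealin, rose by 2.55 and 2.62.

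Centromere and kinetochore genes had the lowest median rise of the 9 roles on this scale, 2.10, and all 8 passed. A pseudocount of 1 narrows changes of low genes, and with 0.1 their median of 2.97 was close to that of the cytokinesis genes (2.98). Cenpa, which encodes the histone variant that marks centromeres, was among the 3 members with the narrowest rise (1.80, SE 0.27, limma adjusted p = 0.0011). It had 2.70 and 2.43 FPKM in the epithelia, 8.70, 16.0 and 18.7 FPKM in biliary organoids and 10.9, 8.53 and 15.3 FPKM in pancreatic organoids. Nuf2 and Spc25, subunits of the Ndc80 complex that grips microtubules, rose by 1.81 each, and Ndc80 itself by 2.15. Knstrn, a spindle and kinetochore adaptor, rose most in this role, by 2.78.

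Kif23, a motor of the central spindle and the most abundant kinesin of the list, had 3.71 and 1.52 FPKM in the epithelia and 16.1 to 31.7 FPKM in organoids (rise 2.78). Kif11, the motor that pushes spindle poles apart, had 2.87 and 1.02 FPKM in the epithelia, then 7.91, 12.4 and 9.68 FPKM in biliary and 9.82, 5.36 and 12.1 FPKM in pancreatic organoids. The 8 kinesins rose by 1.77 (Kif11) to 2.84 (Kif20a, a motor of cytokinesis). Exons of Kif20a share 1271 bases with those of Cdc23 on the opposite strand. The strand setting of the counting is not given in the sources used here, so reads of these genes may not be separable. In all, exons of 12 members share bases with another gene.

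Spindle assembly genes rose by 1.82 (Nusap1, a microtubule bundler) to 2.99 (Tpx2, the activator of Aurora A). Tpx2 had 2.56 and 1.99 FPKM in the epithelia, then 22.1, 33.4 and 35.5 FPKM in biliary and 28.7, 16.0 and 32.1 FPKM in pancreatic organoids. Cytokinesis genes rose by 2.26 (Prc1, which bundles the central spindle) to 3.22 (Ect2, which switches on the contractile ring). Ect2 had 2.35 and 1.44 FPKM in the epithelia, then 23.0, 31.4 and 36.2 FPKM in biliary and 32.8, 15.5 and 34.0 FPKM in pancreatic organoids. In both genes the lowest culture lay well above the higher epithelium. A fit without 1 of the epithelia leaves a single epithelial library, which is assumed to vary like the organoids, so only effect sizes are given. Without pancreatic epithelium the median rise of the 44 genes was 2.48. Plk1 then stood at 1.46, Cdca3 at 1.75 and Pttg1 at the value given above. Without biliary epithelium the median rise was 2.87.

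**Figure D2:**
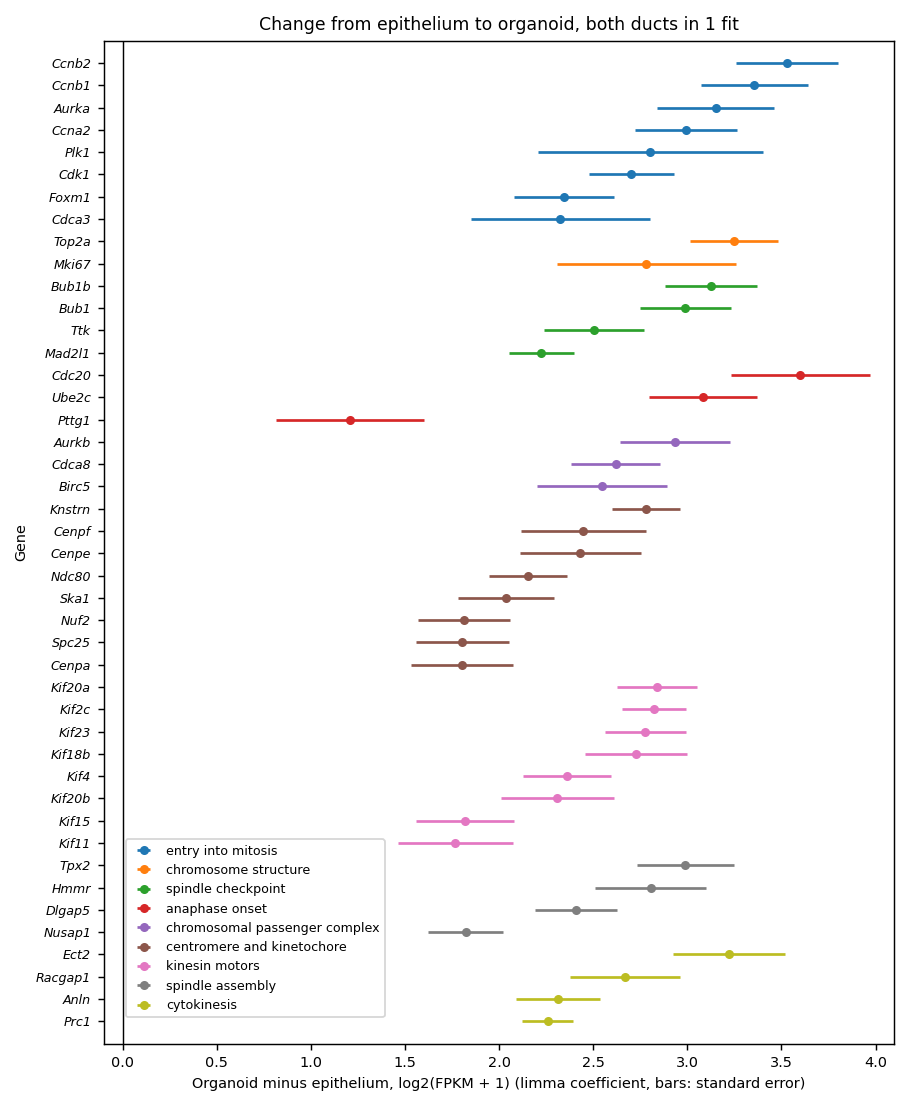
Points give the limma coefficient of organoid minus epithelium on the log2(FPKM + 1) scale for each gene, with bars for its standard error, coloured by role. All lie to the right of 0, Cdc20 is furthest at 3.60 and Pttg1 stands apart at 1.21.

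Each duct was then taken alone, where the epithelium is 1 library, and values are given with no test. From biliary epithelium to its organoids, 43 of 44 genes were at least 2-fold higher with all 3 cultures on that side, against 14.2% of 15727 genes, and 0 were at least 2-fold lower (23.8% of genes). The exception was Pttg1, with a log2 difference of 0.23. From pancreatic epithelium to its organoids, all 44 were, against 17.2% of 15515 genes, and again 0 were at least 2-fold lower (22.5% of genes). The median log2 difference of the members was 2.46 on the biliary and 2.86 on the pancreatic side. Expressed as a share of the organoid mean, the epithelium held a median of 11.2% on the biliary and 6.12% on the pancreatic side. Plk1 reached 30.3% and Pttg1 75.5% in bile duct, while Plk1 was the lowest in pancreatic duct, at 2.43%.

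Biliary epithelium had more FPKM than pancreatic epithelium for all 44 genes. With 1 library per organ this difference has no replicate check. The median ratio was 1.97, and in 34 of the 39 genes with a read number the 95% counting interval of the ratio (exact binomial, covering counting error alone) lay above 1, against 27.6% of 12672 genes with read numbers. Of the 37 members with at least 1 FPKM in either epithelium, 6 were at least 2-fold higher on the log2(FPKM + 1) scale, against 9.07% of 15092 genes, 0 were at least 2-fold lower, against 4.31%, and 37 were higher by any amount, against 48.4%. With a pseudocount of 0.1 the 6 became 20, against 12.3% of all genes. By the ratio of FPKM, 21 of the 44 members were at least 2-fold higher, against 10.3% of 14919 genes. The other 23 included 7 of the 8 centromere and kinetochore genes and all 4 cytokinesis genes. Among them were Cenpa at a ratio of 1.11 (interval 0.915 to 1.35) and Nuf2 at 1.13 (interval 0.762 to 1.69), and Foxm1 at 1.29 (interval 0.998 to 1.67). The median log2 difference of the 37 members was 0.69, and it was smaller in 2 related lists described below. The 66 further mitosis genes summed to 167 FPKM in biliary and 124 FPKM in pancreatic epithelium (median 0.33). The DNA replication genes summed to 166 and 141 FPKM (median 0.17).

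Plk1 (chromosome 7, 122159439 to 122169873), the Polo-like kinase gene, stood furthest apart. It had 12.4 FPKM (350 reads) in biliary epithelium, where it was the most abundant of the 44, and 0.883 FPKM (30 reads) in pancreatic epithelium, a ratio of 14.0 (interval 9.63 to 21.1). Relative to Ccnb2, Plk1 stood at 2.16 in biliary epithelium, 0.373 in pancreatic epithelium and 0.515 to 0.688 in the 6 organoids. The gene Ern2 lies on the opposite strand with 20 bases between its end and that of Plk1. Ern2, an endoplasmic reticulum stress sensor known from mucus-secreting epithelia, had 11.3 FPKM in biliary epithelium, 0.109 FPKM in pancreatic epithelium and 0.0568 to 1.69 FPKM in organoids. The unnamed transcript Gm44985, whose exons share 156 bases with Plk1 on the opposite strand, had 8.26 and 0.255 FPKM in the epithelia and 0.168 to 1.53 FPKM in organoids. Both were thus high in the same library as Plk1, and their part in the Plk1 value was not tested.

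Pttg1 had the second widest ratio, 6.34 (interval 4.71 to 8.67, from 280 and 53 reads). Relative to Ccnb2 it stood at 1.90 and 0.724 in biliary and pancreatic epithelium and at 0.173 to 0.332 in organoids. No other annotated gene lies within 1000 bases of it. Cdca3, a trigger of mitotic entry, followed at 5.20 (3.87 against 0.745 FPKM, interval 3.54 to 7.84), then Kif4, a chromosome-bound kinesin, at 3.73, and Ube2c at 3.68. Leaving out Plk1 and Pttg1, the summed level of the other members was 2.04 times as high in biliary as in pancreatic epithelium, against 2.36 times with them. Plk1, Pttg1, Cdca3 and Ube2c were singled out after their values had been seen.

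Markers of cell types also differed between the epithelia. All 7 duct epithelium markers were higher in biliary epithelium, with a summed ratio of 4.69, and so were all 6 intestinal markers, at 172 against 8.71 FPKM summed. In the organoids the intestinal markers summed to 62.3 to 128 FPKM, most of it Vil1. Cdx2 had 4.45 to 20.7 FPKM there, against 4.84 and 0.114 FPKM in biliary and pancreatic epithelium. Lgr5 had 0.670 to 6.85 FPKM in organoids, against 0.545 and 0.296 FPKM. Muc2 and Fabp2 had at most 0.320 and 0.740 FPKM in an organoid, and Sis was at 0 in all 6. Of 8 immune markers 4 were higher in biliary epithelium, with sums of 357 and 363 FPKM. Others were lower there, with 0 of 5 acinar markers higher (sums of 14156 and 28478 FPKM), 0 of 4 endothelial (232 and 427 FPKM), 1 of 4 smooth muscle (1577 and 3042 FPKM) and 2 of 5 endocrine markers. The part of these cells in the epithelial levels was not tested.

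**Figure D3:**
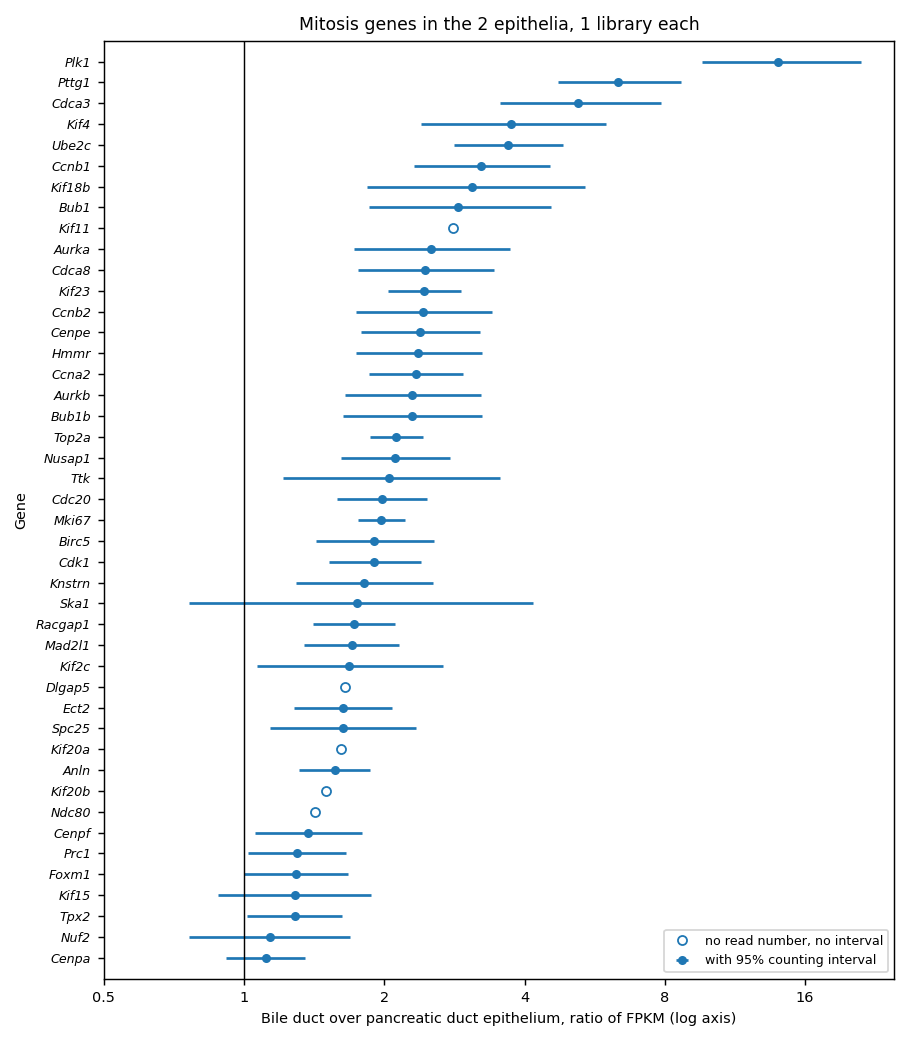
Ratio of FPKM in biliary to pancreatic epithelium for each gene on a log axis, with 95% counting intervals where a read number could be recovered (open points have none). All points lie above 1, Plk1 is furthest at 14.0 and Cenpa lowest at 1.11.

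**Figure D4:**
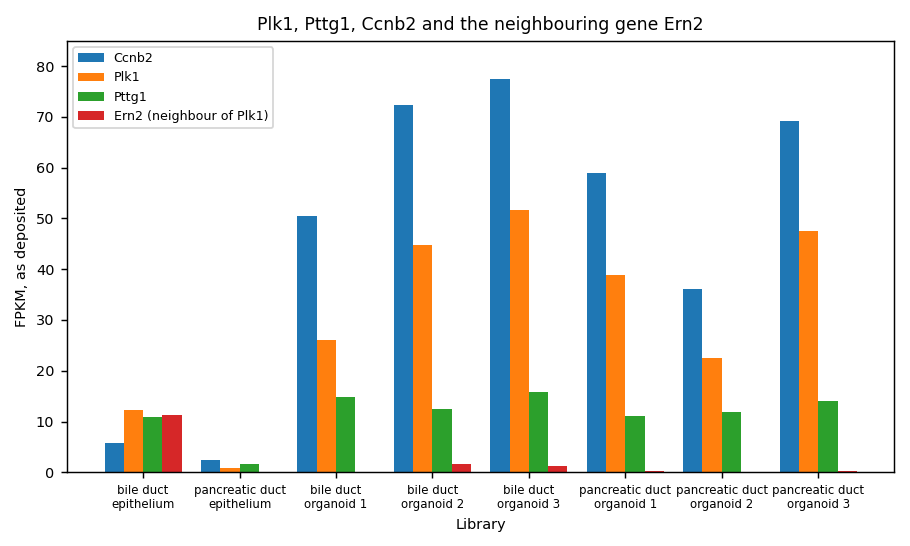
Bars give deposited FPKM in each library for the cyclin gene Ccnb2, for Plk1 and Pttg1, and for Ern2, the neighbour of Plk1. Plk1, Pttg1 and Ern2 exceed Ccnb2 in biliary epithelium and in no other library, where Ccnb2 is above all of them.

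Between the organoid groups none of the 44 genes differed in the limma test (adjusted p = 1.00 for each), where 0 of 12106 genes tested (0.0%) passed in either direction. At an unadjusted p under 0.05 there were 0 members, against 2.56% of all genes. With limma-voom on recovered reads, 0 of 39 members passed at the adjusted threshold and 0 at the unadjusted one. Of all 10290 genes in that fit, 0 and 248 did so. No member had its groups free of overlap, against 6.37% of genes. The mean was higher in biliary organoids for all 44, by a median of 0.26 on the log2 scale (all genes: -0.0044), but the cultures move together, so these are not 44 separate observations. The median was 0.06 without pancreatic organoid 2 and 0.43 without biliary organoid 1. The members with the smallest p were Kif23, Kif4 and Top2a. Kif23 had 21.9, 31.6 and 31.7 FPKM in biliary organoids and 24.2, 16.1 and 25.4 FPKM in pancreatic organoids, a difference of 0.36 (SE 0.20, limma unadjusted p = 0.125). Kif4 had 6.90, 11.2 and 11.0 FPKM against 7.33, 5.00 and 9.35 FPKM (0.38, SE 0.23, limma unadjusted p = 0.155), and Top2a differed by 0.34 (SE 0.23, limma unadjusted p = 0.178). In each of these the groups overlapped.

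The cultures also differed from each other within an organ. Pancreatic organoid 2 had the lowest summed level of the 44 genes, 530.4 FPKM, followed by biliary organoid 1 with 731, pancreatic organoid 1 with 901, pancreatic organoid 3 with 1039, biliary organoid 2 with 1132 and biliary organoid 3 with 1217. The highest was 2.29 times the lowest. Pancreatic organoid 2 was the lowest culture for 43 of 44 genes, and biliary organoid 3 the highest for 34. The full order of these sums was also the order of 19 single genes, and 39 genes had pancreatic organoid 2 and biliary organoid 1 as their 2 lowest cultures. With trimmed mean scaling the ratio of highest to lowest was 2.15 and pancreatic organoid 2 was again lowest for 43 genes.

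The coefficient of variation over the 6 organoids had a median of 27.6% for the members and of 17.7% for all genes tested, and 42 members lay above the latter. Mki67 varied most, with a coefficient of 50.0% and 3.62 times as much in the highest as in the lowest culture. Cdca3 followed at 45.4%, Cdc20 at 39.4% and Cenpf, a large kinetochore protein gene, at 39.3%. The 2 members below the all-gene median were Prc1 and Pttg1. Prc1 had 10.8, 11.5 and 10.7 FPKM in biliary organoids and 10.9, 7.77 and 10.2 FPKM in pancreatic organoids, a coefficient of 12.7%. Pttg1 had a coefficient of 13.9% and was the member whose lowest culture was not pancreatic organoid 2 but pancreatic organoid 1.

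**Figure D5:**
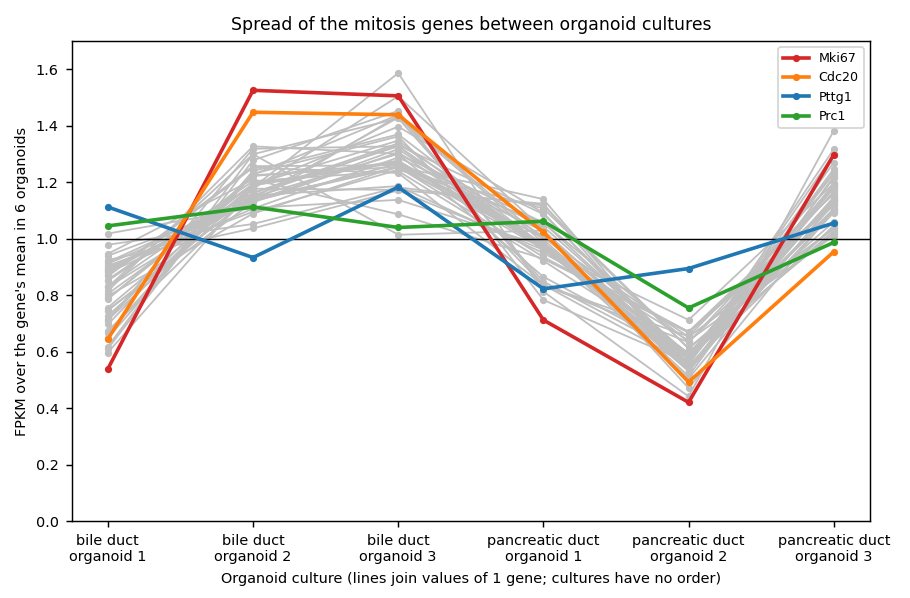
Each line gives 1 gene's FPKM in the 6 organoids divided by its mean over them, with Mki67, Cdc20, Prc1 and Pttg1 in colour and the other 40 genes in grey. Nearly all lines dip at pancreatic organoid 2 and biliary organoid 1, Mki67 most widely, and Prc1 and Pttg1 stay closest to 1.

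Other genes of the pathway were counted in the same fit of epithelium against organoid. Of 66 further mitosis genes 63 rose and 0 fell, with a median of 2.12. Psrc1, a microtubule-associated spindle protein gene, rose most, by 3.75, then Gtse1, a microtubule and G2 phase factor gene, by 3.62, and the condensin subunit gene Ncaph by 3.19. The 3 that did not pass were the kinetochore genes Zw10 (0.10) and Cenpt (0.11) and the cytoskeletal linker gene Gas2l3 (0.50). Of 14 tested genes of the anaphase promoting complex, its core subunits and the activator Fzr1, 5 rose, 1 fell and 8 did not pass, with a median of 0.23. The share that rose is near that of all genes tested (32.3%), of which 27.0% fell, and without Fzr1 4 of 13 rose. The widest was Fzr1, the activator that replaces Cdc20 after anaphase, at 1.34 (SE 0.10, limma adjusted p = 3.84e-05), and Anapc10, a substrate-binding subunit, fell by 0.80. Of 10 cohesin genes, which hold sister chromatids together, 5 rose, 1 fell (Stag2, by 0.59) and 4 did not pass, with a median of 0.32.

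Among 16 regulators of mitotic transcription, 6 rose and 2 fell, with a median of 0.27. Of all genes tested, 32.3% rose and 27.0% fell. Mybl2, which encodes B-Myb, rose most, by 3.06 (SE 0.37, limma adjusted p = 0.000373), from 0.788 and 0.433 FPKM in the epithelia to 6.60 to 22.1 FPKM in organoids. Tfdp1, the dimer partner of E2F factors, and Rbl1, the pocket protein p107, each rose by 1.59. Rbl2, the pocket protein p130 of resting cells, fell by 0.52, and the MuvB subunit gene Lin52 fell by 1.04. The NF-Y subunit genes Nfya, Nfyb and Nfyc did not pass, at 0.26, 0.05 and -0.06, and are named here for the CCAAT box after their values were seen.

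Of 36 tested DNA replication and G1/S genes, 35 rose and 0 fell, with a median of 2.10. The summed level of the mitosis members over that of the replication list was 1.03 to 1.14 in the 6 organoids, 0.779 in biliary epithelium and 0.388 in pancreatic epithelium. Of 14 G1 cyclins, their kinases and inhibitors, 8 rose and 3 fell. Cyclin D1 (Ccnd1) rose by 3.16, and the inhibitor genes Cdkn2a and Cdkn2b rose by 4.74 and 2.96, while Cdkn1c fell by 1.53, the pocket protein gene Rb1 by 0.67 and the inhibitor gene Cdkn1b by 0.49.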

How the data were processed

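Polyadenylated RNA of 8 mouse libraries was measured, with 1 deposited table of 31228 genes. Values are FPKM as deposited by the authors, read as such from the values. The submitters' processing notes name Bowtie2 2.2.3, HISAT2 2.1.0, TopHat2 and HTSeq 0.6.0 without roles, and the build, annotation and strand setting are not given in the sources used here. All 8 per-sample columns were used. Gene coordinates are those of the table, and 28575 of 31141 matched genes had identical ones in GENCODE M21 (GRCm38).

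FPKM times merged exon length was a whole multiple of a library-specific step within 0.05 of a read for 28310 genes (90.7%), 39 members among them, which gave read numbers. Intervals cover counting error only. FPKM was scaled by an unweighted trimmed mean of log ratios (30% and 5% trimmed), and log2(FPKM + 1) was tested with limma 3.58.1 with an intensity trend in R 4.3.3. Genes needed 1 FPKM in 3 organoids, or in 2 of 8 libraries. Values quoted for members are deposited FPKM, and differences are on the scaled log2 scale. With a single library on a side, genes 2-fold apart were counted.

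Tested on simulated data with 200 changed genes, the fit recovered 64% of 2-fold and 74% of 4-fold changes between organoid groups (12106 genes, 5 false among 151 calls). Between epithelia and organoids it recovered 51% and 88% (14919 genes, 11 false among 152 calls). The simulated noise was independent between genes and alike in epithelia and organoids. The real cultures move together over genes and the spread of epithelia is not known, so these rates may not hold for the real data. The members and lists were chosen with earlier results of these data known. Members named with full values were the most abundant of each role, by mean log2(FPKM + 1) over the 8 libraries, and Mki67, Top2a, Cdk1, Ccnb1 and Foxm1. Full values were also given for the 3 widest and 3 narrowest changes, the 3 smallest p between organoids, and the widest and narrowest spread. Other members named are examples picked with values known. Other lists give up to 4 genes by size and up to 3 against the list. Alternatives covered scaling, pseudocount, filter, block, organ term, limma-voom, fold threshold and left-out libraries. Replicate numbers come from titles alone. Single values of some marker genes are not reported here. Computation also used Python 3.11.15, pandas 2.3.3, numpy 2.4.6, scipy 1.17.1 and matplotlib 3.10.9.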

Additional observations from a re-analysis of the deposited data

How the results depend on the processing

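Counts of members held within 1.5 times their reported value under every alternative run, except between the epithelia. There the 6 genes at least 2-fold apart became 20 with a pseudocount of 0.1 and 11 with 0.5, 24 at a 1.5-fold threshold and 2 at a 4-fold threshold, against 12.3%, 10.8%, 15.7% and 3.32% of all genes. From epithelium to organoid, 43 to 44 members passed limma when single organoids were left out. Of all genes, 8222 to 9185 of 14772 to 14846 tested passed there in either direction. Over all alternatives, 690 of 699 single-gene values kept their direction and their side of the threshold. These take in fits with 1 epithelium left, which is assumed to vary like the organoids. The 9 others were those of Pttg1, Plk1 and Cdca3 given above, whose cause was not tested. Between organoid groups, leaving out 1 culture at a time gave 0 members throughout at the adjusted threshold. Of all genes, 11 of 11844 passed without pancreatic organoid 3 and 0 in the other such fits. At an unadjusted limma p under 0.05, 1 member passed without biliary organoid 1 (1023 of 11924 genes). Another such fit, without pancreatic organoid 3, also gave 1 member (426 of 11844 genes). Entering the replicate number as a block called 0 members and 0 of 12106 genes. Over the genes tested, deviations from the group mean correlated at -0.10, -0.44 and 0.48 for same-numbered cultures. Of 6 cultures, 2 correlated best with their own number. For differently numbered cultures the values ran from -0.59 (biliary organoid 3 with pancreatic organoid 2) to 0.65 (biliary organoid 1 with pancreatic organoid 2). Deviations from a mean of 3 cultures depend on each other, so these values cannot decide whether the cultures were paired. The ratio of the highest to the lowest summed level in organoids lay between 1.66 and 2.29 when 1 culture was left out. Read numbers of 11 to 16 for Ska1 in the epithelia set the weakest precision among the members.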
